A study of Mus musculus with 6 samples.

Results

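The 10 imprinted genes Dlk1, Meg3, Peg3, Mest, Plagl1, Grb10, Ndn, H19, Impact and Zim1 were followed through 6 ribosome-bound RNA libraries from the dentate gyrus of adult mice. The genes were chosen by name, and all 10 were found among the 37620 Ensembl genes counted in the files. The libraries came from 3 Klf9 +/+ and 3 Klf9 f/f samples. All mice carried Gli1CreERT2 and Rpl22HA f/+ and received tamoxifen (TAM) at 2–3 months of age, and tissue was taken 4 days after the last injection. Cre therefore acted in cells that expressed Gli1, which in the dentate gyrus are radial glia-like stem cells (RGLs) and astrocytes. In these cells and their descendants it switched on HA-tagged RPL22 and, in Klf9 f/f mice, deleted Klf9 in part of them. The titles call these samples knock down, and each sample pooled 6 dentate gyri of 3 mice. The library names fall into the series YTa22, with replicates 1 and 2 of each genotype, and YTa32, with replicate 3 of each genotype. They are called series 22 and series 32 here, and replicate numbers are running numbers within a genotype that pair no samples.

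Imprinted genes are read mainly from the chromosome of one parent, and many of them set how much a fetus or a stem cell pool grows. Those read from the father's copy often favour growth and those read from the mother's copy often restrain it, although several members go against this rule. In neural stem cells some imprinted genes lose their parental bias, as has been described for Dlk1. The counts do not separate the parental alleles, so all levels below are the sum of both copies.

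H19, Mest and Meg3 contain genes of microRNAs, which are shown to separate the host transcript from its small product. The RefSeq mature sequences (GRCm38.p6) follow 5′ to 3′, with the seed (bases 2 to 8) in capitals.
mmu-miR-675-5p, in an exon of H19: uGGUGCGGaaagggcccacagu
mmu-miR-335-5p, in an intron of Mest: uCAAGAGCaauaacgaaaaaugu
mmu-miR-770-5p, in an exon of Meg3: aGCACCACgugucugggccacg
The 3 sequences have different seeds. Mir675 and Mir770 were at 0 counts in all 6 libraries, and Mir335 had 1 count in Klf9 f/f replicate 1 and 1 count in Klf9 +/+ replicate 2. Reads on Mir675 or Mir770 also fall on the host exons and are not given to either gene. Their 0 counts therefore say nothing about the small products. The values given for H19, Mest and Meg3 are counts of the long transcripts. The counting did not use strand, and 904 bp of the Mest exons, 23.0% of their length, overlap those of Copg2 on the other strand. Likewise, 1228 bp of the Meg3 exons, 6.79% of their length, overlap those of the noncoding gene Gm17639 on the other strand. Reads in these stretches cannot be given to either gene of the pair.

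The libraries held 21594714 to 66343759 reads on genes, with fewer reads in series 32 than in series 22. Reads that fell on more than 1 gene came to 1.82–1.88% of the gene counts in series 32 and 2.89–3.19% in series 22. Klf9, the targeted gene, had levels of 200.7, 203.7 and 138.9 CPM (counts scaled to the library total after TMM normalization) in the Klf9 +/+ samples and of 114.1, 121.2 and 119.9 CPM in the Klf9 f/f samples. Its log2 fold change was -0.59 ± 0.15 (SE; unadjusted p = 0.00319, adjusted p = 0.844 by edgeR's quasi-likelihood test). The difference was -0.78 within series 22 and only -0.21 within series 32. Values of a genotype are given throughout for replicates 1, 2 and 3 in turn. All 9 RGL markers listed were detected, with a summed level of 2090 to 3790 CPM in Klf9 +/+ and 2690 to 3520 CPM in Klf9 f/f. The 8 astrocyte markers, which RGLs share in large part, summed to 11600 to 17500 CPM. Markers of tissue outside the stem cell lineage were also present, and none of the markers listed was at 0 in all libraries. The 11 choroid plexus markers summed to 148 to 2740 CPM in Klf9 +/+ and 28.2 to 422 CPM in Klf9 f/f. The 12 endothelial markers summed to 167 to 430 and 66.5 to 271 CPM, and the 9 meningeal fibroblast markers to 548 to 1130 and 315 to 710 CPM. In bulk RNA of this kind, fewer cells of a type and less RNA per cell cannot be told apart.

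The members lie in 8 places of the mm9 genome. Dlk1 (ENSMUSG00000040856, chr12:110691033-110701546, plus strand) and Meg3 (ENSMUSG00000021268, chr12:110779211-110809936, plus strand) are neighbours with a gap of 77664 bp. Peg3 (ENSMUSG00000002265, chr7:6656603-6683132) and Zim1 (ENSMUSG00000002266, chr7:6628154-6649161) are both on the minus strand with a gap of 7441 bp. Ndn (ENSMUSG00000033585, chr7:69493163-69494814) is a gene of 1 exon on the same chromosome. H19 (ENSMUSG00000000031, chr7:149761434-149764048) lies 72624 bp from Igf2 near the far end of chromosome 7. Mest (ENSMUSG00000051855) spans chr6:30673547-30698457, Plagl1 (ENSMUSG00000019817) chr10:12810497-12851500, Grb10 (ENSMUSG00000020176) chr11:11830511-11938686 and Impact (ENSMUSG00000024423) chr18:13130761-13151457.

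The levels of the members differed widely. Per length, as CPM per kb of exon over the 6 samples, Ndn was the highest of the 10 genes, with a median level of 203 and a range of 155 to 242, above 98.2% of all genes tested. Necdin, its product, is a MAGE family protein that holds back proliferation and is known from postmitotic neurons. Impact, a regulator of translation that restrains the kinase GCN2, followed with a median of 28.7 and a range of 24.5 to 35.8. The long noncoding RNA Meg3 had a median of 11.2, with a range of 7.99 to 19.7, and Mest, which encodes a hydrolase-like protein of the endoplasmic reticulum, one of 9.86, with a range of 7.68 to 12.9. The ranges of Meg3 and Mest overlapped. Peg3, a large zinc finger protein, ranged from 3.96 to 4.88.

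Plagl1, a zinc finger transcription factor known for arresting the cell cycle and for regulating other imprinted genes, had a median of 1.35 CPM per kb. Grb10, an adaptor that dampens insulin and IGF receptor signaling, had a median of 1.23, and the ranges of both genes overlapped. Dlk1, a membrane protein with EGF repeats related to the Notch ligands, ranged from 0.164 to 0.664 CPM per kb. The noncoding RNA H19 and the zinc finger gene Zim1 were lowest, with medians of 0.0694 and 0.0302 and overlapping ranges. Apart from the pairs Meg3 and Mest, Plagl1 and Grb10, and H19 and Zim1, the ranges of neighbours in this order did not overlap.

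**Figure D1:**
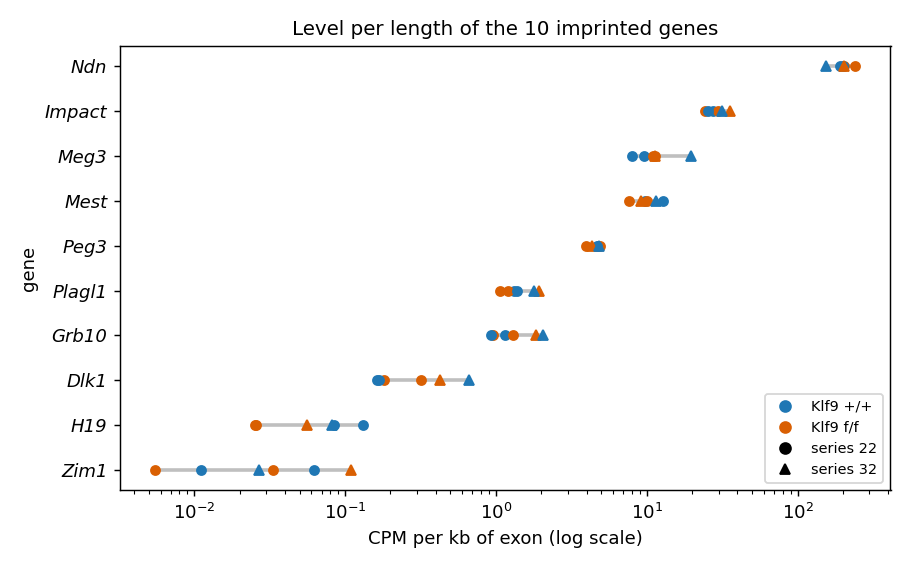
The level of each of the 10 genes is plotted as CPM per kb of exon on a log axis, with a point per sample colored by genotype and shaped by library series, and a grey line over the range. Ndn lies highest with a median of 203, and H19 and Zim1 lie lowest with medians of 0.0694 and 0.0302.

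The first comparison was that of Klf9 f/f with Klf9 +/+. No member passed the threshold for a change with genotype. Of the 10 genes, 8 passed the filter of 1 CPM in at least 1 sample, while H19 and Zim1 did not. Of these 8, 4 had a positive and 4 a negative log2 fold change, from -0.35 for Mest to 0.25 for Ndn. Their median was 0.00, as was that of the 15056 genes tested. Calls were made at 1.2-fold and an unadjusted p under 0.05, which 4.32% of all genes tested passed, 1.82% higher and 2.50% lower in Klf9 f/f. By edgeR's quasi-likelihood test 0 of the 8 members passed this threshold, and 0 had an unadjusted p under 0.05. The same held with the likelihood-ratio test and with DESeq2, each with 0 of 8. All 8 adjusted p-values were 1.00, and over all genes tested 0 had an adjusted p under 0.05.

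Among the genes read from the father's copy, Ndn came closest to a rise. Its level was 317, 333 and 256 CPM in the Klf9 +/+ samples and 400.2, 338 and 338 CPM in the Klf9 f/f samples. All Klf9 f/f samples lay above all Klf9 +/+ samples, as for 2.03% of all genes tested, but Klf9 f/f replicate 2 exceeded Klf9 +/+ replicate 2 by only a small margin. The log2 fold change was 0.25 ± 0.14 (SE), with a 95% interval from -0.05 to 0.56. It was 0.18 within series 22 and 0.40 within series 32, and 7.78% of all genes tested had Klf9 f/f above Klf9 +/+ without overlap within each series. With a sample left out it went from 0.18 to 0.34, and it passed the threshold only without Klf9 f/f replicate 2, at an unadjusted p of 0.0498 by the same edgeR test. The 9 granule neuron markers, neurons being a known source of necdin, had a median log2 fold change of -0.11 in the same fit, with 0 called. The other neuron markers listed had medians of 0.09 for GABA interneurons and -0.19 for thalamic neurons. Of the 8 astrocyte markers, 3 were called higher, with a median of 0.36. The part of these cell types in the Ndn level was not tested.

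Mest was lower in Klf9 f/f by its fitted value. Its level was 38.3, 50.6 and 45.6 CPM in the Klf9 +/+ samples and 30.2, 39.4 and 35.9 CPM in the Klf9 f/f samples. The groups overlapped, since Klf9 f/f replicate 2 lay above Klf9 +/+ replicate 1. The log2 fold change was -0.35 ± 0.16 (SE), with a 95% interval from -0.71 to 0.01 and an unadjusted p of 0.0566. The differences within the series were nearly equal, at -0.35 in series 22 and -0.34 in series 32. The call depended on single libraries and on the scaling. Without Klf9 +/+ replicate 1 the value was -0.46 (unadjusted p = 0.0248, edgeR), without Klf9 f/f replicate 2 it was -0.47 (unadjusted p = 0.0311), and with upper-quartile scaling it was -0.36 (unadjusted p = 0.0452). It shrank to -0.23 (unadjusted p = 0.216) without Klf9 +/+ replicate 2 and to -0.25 (unadjusted p = 0.168) without Klf9 f/f replicate 1. Copg2, whose exons overlap those of Mest, had a log2 fold change of 0.13 ± 0.23 (SE).

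Dlk1 was near the limit of the filter. Its level was 0.929, 0.956 and 3.75 CPM in the Klf9 +/+ samples, from 46, 55 and 115 reads, and 1.80, 1.02 and 2.40 CPM in the Klf9 f/f samples, from 118, 51 and 54 reads. The log2 fold change was 0.18 ± 0.39 (SE), and the interval from -0.70 to 1.05 leaves room for a change of either sign. Without Klf9 f/f replicate 1 the value turned to -0.21, and it was 0.59 without Klf9 f/f replicate 3 and 0.58 without Klf9 +/+ replicate 3.

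Peg3 varied least of the 10 genes, with a range of 0.30 over the 6 samples on the log2 CPM scale. Its level was 63.0, 62.2 and 64.1 CPM in the Klf9 +/+ samples and 65.0, 52.8 and 57.9 CPM in the Klf9 f/f samples. Klf9 f/f replicate 1 was the highest of all samples and the other Klf9 f/f samples were the lowest. The log2 fold change was -0.11, with an interval from -0.41 to 0.19. The level of Plagl1 was 9.63, 10.1 and 13.1 CPM in the Klf9 +/+ samples and 8.78, 7.71 and 14.2 CPM in the Klf9 f/f samples. Its log2 fold change was -0.13 (interval -0.54 to 0.27), at -0.26 within series 22 and 0.12 within series 32. The level of Impact was 95.2, 87.1 and 108 CPM in the Klf9 +/+ samples and 101.9, 84.1 and 122.8 CPM in the Klf9 f/f samples. The groups overlapped for all 3 of these genes, and the log2 fold change of Impact was 0.08 (interval -0.22 to 0.38).

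**Figure D2:**
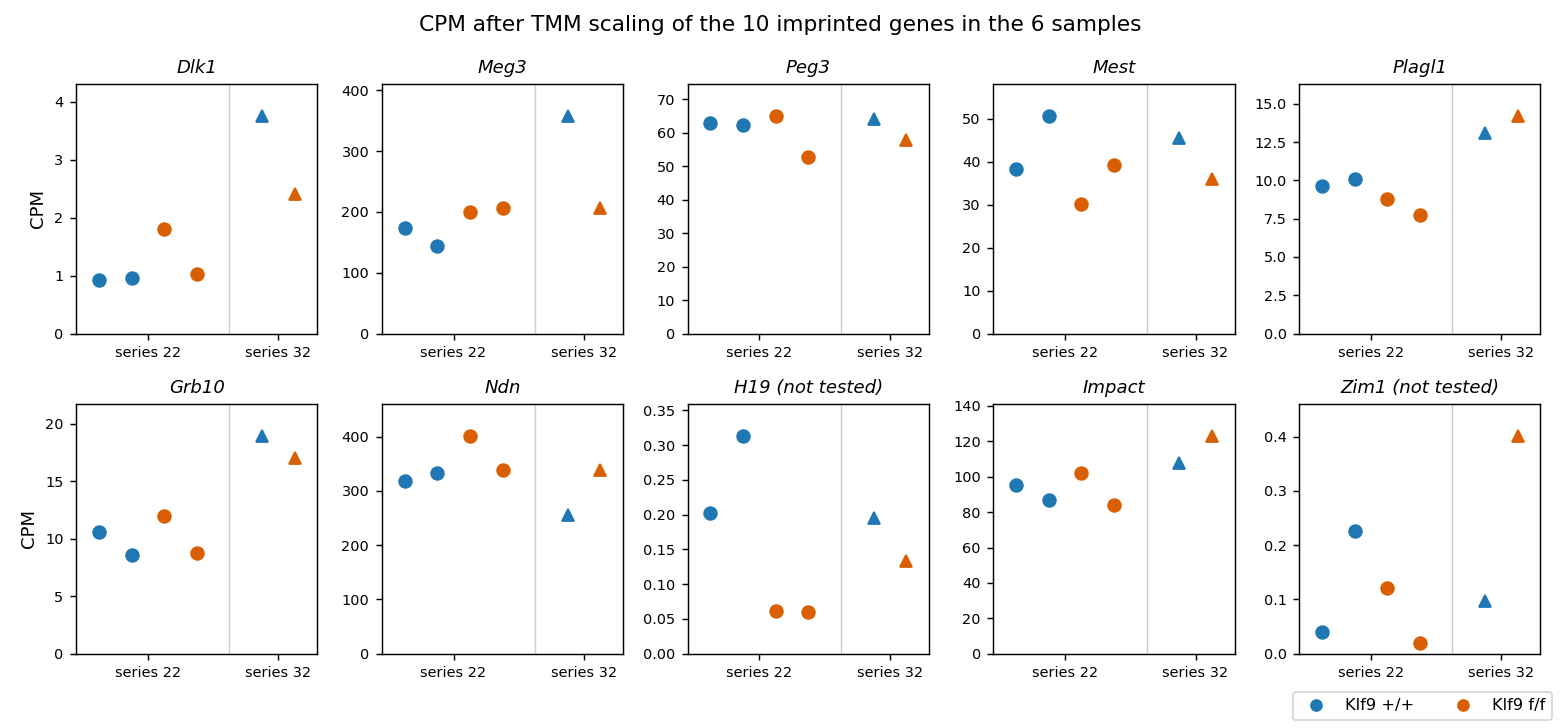
The CPM after TMM scaling is shown for each of the 10 genes, with a point per sample, Klf9 +/+ in blue, Klf9 f/f in orange, and series 22 to the left of series 32; each panel has its own axis from 0. Meg3 in Klf9 +/+ replicate 3 reaches 357 CPM against 145 to 207 CPM in the other 5 samples.

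Of the genes read from the mother's copy, Meg3 had genotype differences of opposite sign in the 2 series. Its level was 173, 145 and 357 CPM in the Klf9 +/+ samples and 200.3, 207 and 206 CPM in the Klf9 f/f samples. The Klf9 f/f samples were nearly equal, with an SD of 3.49 CPM, while the Klf9 +/+ samples spread over an SD of 115 CPM. Both Klf9 f/f samples lay above both Klf9 +/+ samples in series 22, with a log2 difference of 0.36, whereas in series 32 the difference was -0.80. The fitted log2 fold change over both series was -0.02 with an interval from -0.53 to 0.49. It turned to 0.36 without Klf9 f/f replicate 3 and to 0.35 without Klf9 +/+ replicate 3.

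The difference between the series was tested as an interaction term, in a fit that leaves 2 residual degrees of freedom. For Meg3 the difference in series 32 less that in series 22 was -1.15 ± 0.36 (SE), with an interval from -1.94 to -0.37. The unadjusted p was 0.00797 and the adjusted p 1.00 from edgeR. Over all genes tested, 1.53% had an unadjusted p under 0.05 for this term and 0 an adjusted p under 0.05. Series 32 holds 1 sample of each genotype, so the value rests on a single pair of libraries there. The other 7 members had unadjusted p-values of 0.143 for Dlk1 to 0.982 for Mest.

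Grb10 is read from the mother's copy in most tissues and from the father's copy in neurons. Its level was 10.6, 8.57 and 18.9 CPM in the Klf9 +/+ samples and 11.97, 8.80 and 17.0 CPM in the Klf9 f/f samples. The genotypes overlapped within series 22, and the log2 fold change of 0.03 had an interval from -0.40 to 0.46.

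H19 and Zim1 were counted too seldom for the test. H19 had 10, 18 and 6 reads in Klf9 +/+ replicates 1, 2 and 3 and 4, 3 and 3 reads in Klf9 f/f replicates 1, 2 and 3. These came to 0.202, 0.313 and 0.196 CPM against 0.0610, 0.0603 and 0.134 CPM, so that all Klf9 f/f samples lay below all Klf9 +/+ samples, as for 1.35% of the genes tested. They also lay below within each series, as for 5.53% of the genes tested. H19 was not among the genes tested, and no such share was taken over genes with as few reads. When all genes with at least 1 count were fitted, the log2 fold change of H19 was -1.62 ± 0.82 (SE; unadjusted p = 0.0482, adjusted p = 0.857, edgeR). The 12 endothelial markers summed to 430, 167 and 320 CPM in the Klf9 +/+ samples and to 271, 66.5 and 107 CPM in the Klf9 f/f samples. These sums overlapped between genotypes, and Klf9 +/+ replicate 2, with the most H19 reads, had the lowest sum of its genotype. All 12 markers were lower in Klf9 f/f by their fitted values (median -1.06 on the log2 scale), and 3 were called. The 11 choroid plexus markers summed to 148, 730 and 2740 CPM in Klf9 +/+ and to 35.3, 28.2 and 422 CPM in Klf9 f/f. Within series 22 these sums ranked the samples as the H19 reads did. Klf9 +/+ replicate 3, with the highest sum of all, did not have the most H19 reads. The part of these tissues in the H19 level was not tested. Zim1 had 2, 13 and 3 reads in Klf9 +/+ replicates 1, 2 and 3 and 8, 1 and 9 reads in Klf9 f/f replicates 1, 2 and 3, with no order by genotype.

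**Figure D3:**
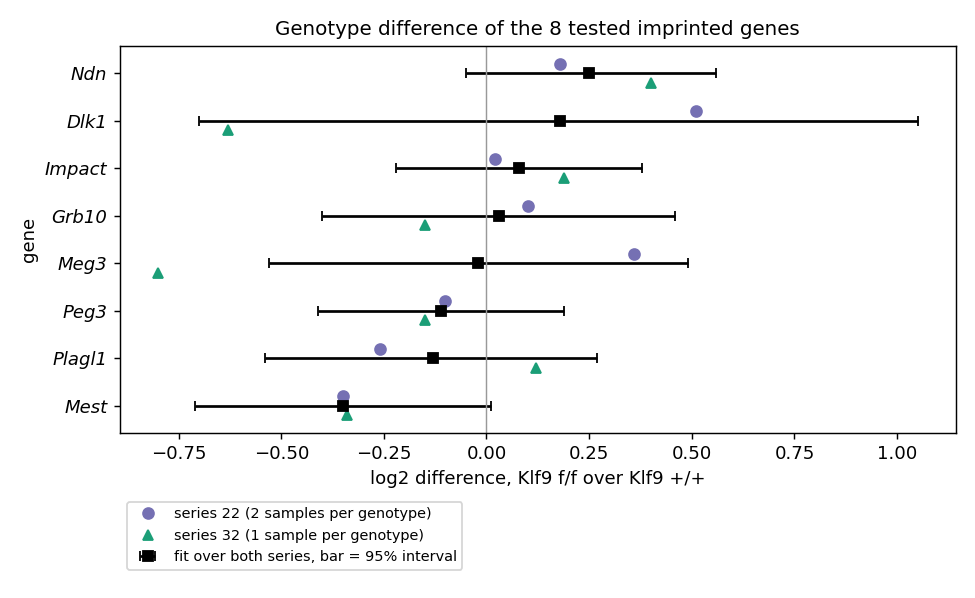
For the 8 members tested, black squares give the fitted log2 fold change of Klf9 f/f over Klf9 +/+ with its 95% interval, circles the difference within series 22 and triangles the difference within series 32. All 8 intervals include 0, and the series differ in sign for Dlk1, Meg3, Plagl1 and Grb10.

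Whether the members vary together was asked next. Some of the members differed between the library series, as did 29.5% of all genes tested. In series 32, Dlk1, Grb10 and Plagl1 were higher than in series 22, with log2 fold changes of 1.42, 0.85 and 0.60 and standard errors of 0.40, 0.20 and 0.19. Their adjusted p-values over all genes were 0.0276, 0.0139 and 0.0401 by edgeR's quasi-likelihood test. For these 3 genes both samples of series 32 lay above all 4 of series 22, as they did for Impact and for 25.5% of all genes tested. Meg3 had a log2 fold change of 0.63 (adjusted p = 0.0711) and Impact one of 0.32 (adjusted p = 0.110). Peg3 and Mest had values of 0.01 and 0.04, and Ndn one of -0.24 (adjusted p = 0.241).

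At 1.2-fold and an adjusted p under 0.05, 3 of 8 members were called higher in series 32 and 0 lower, where 29.5% of all genes tested were called, 12.9% higher and 16.6% lower. The median series log2 fold change was 0.46 for the members and 0.03 for all genes tested. Other measures moved with the series. The 11 choroid plexus markers had a median series log2 fold change of 2.95, with 11 of 11 higher in series 32, and the 9 meningeal fibroblast markers one of 0.77, with 9 of 9 higher. The libraries of series 32 were also the shallower ones. Reads on no gene came to 14.7–16.6% of the gene counts in series 32 and 7.57–9.47% in series 22. Reads without a unique alignment came to 17.7–18.3% and 9.12–11.1%. The part of these measures in the series difference of the members was not tested.

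Within a series the members did not move as a block. Each log2 CPM value was set against the mean of its library series. In series 22, 6 of the 8 members lay above that mean in Klf9 f/f replicate 1, 4 in Klf9 +/+ replicate 1, 3 in Klf9 +/+ replicate 2 and 2 in Klf9 f/f replicate 2. Over all genes tested, the shares above the mean were 50.7%, 47.5%, 49.3% and 52.2% in these samples. In series 32, 5 members were higher in Klf9 +/+ replicate 3 and 3 in Klf9 f/f replicate 3. The median deviation of the members went from -0.13 in Klf9 f/f replicate 2 to 0.15 in Klf9 f/f replicate 1.

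Klf9 f/f replicate 1 showed how the members parted. Dlk1, Grb10, Ndn, Meg3, Impact and Peg3 lay above the series mean there, by 0.65, 0.27, 0.21, 0.16, 0.15 and 0.10. Mest lay below it at -0.37, and Plagl1 was at -0.04. The same sample held the highest sum of the 8 astrocyte markers in series 22, at 17100 CPM. Its sums of meningeal fibroblast, GABA interneuron and microglia markers were also the highest there, at 652, 108 and 88.9 CPM. Klf9 +/+ replicate 2, with 0.38 for Mest and -0.31 for Meg3, was its counterpart. That sample held the highest sum of choroid plexus markers in series 22, at 730 CPM. Its sums of granule neuron, thalamic neuron and oligodendrocyte markers were also the highest there, at 1900, 797 and 792 CPM. Its sums of astrocyte and RGL markers were the lowest there, at 11600 and 2740 CPM. The part of these cell types in the levels of the members was not tested.

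**Figure D4:**
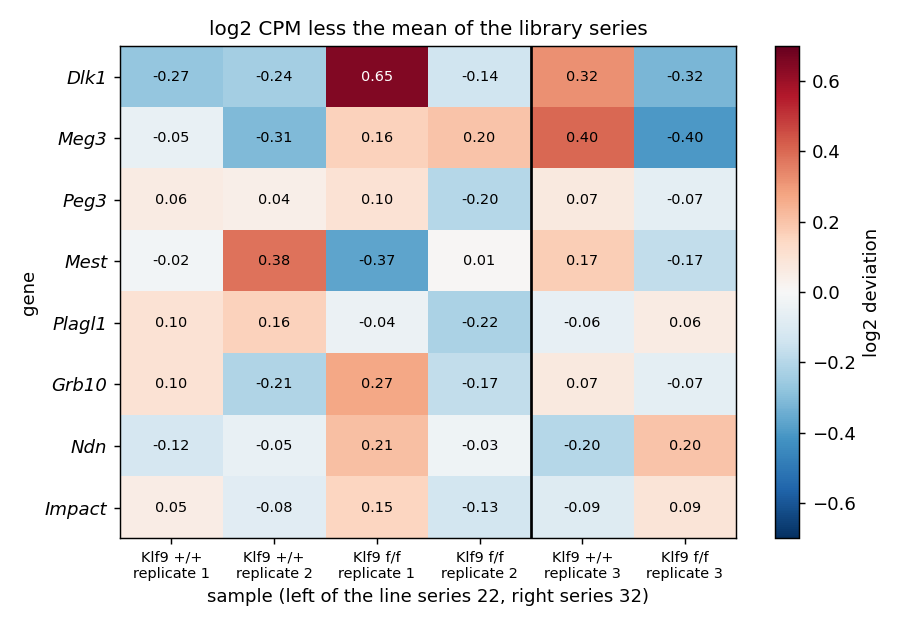
Each cell gives the log2 CPM of a tested member in a sample less the mean of that sample's library series, in red above and in blue below the mean; the line parts series 22 from series 32. No sample has all 8 members on the same side of the mean, and Mest runs against Ndn and Impact in most samples.

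The likeness of 2 members was measured as Pearson's r over the 6 deviations, given as a description only. The deviations are few, they share libraries, and those of the 2 samples of series 32 mirror each other. Of the 28 pairs of members, 16 had a positive r, or 57.1%, against 49.8% of all pairs of genes tested. None of the 28 pairs exceeded 0.8, a value that 6.42% of all pairs exceeded. The highest values were 0.75 for Dlk1 and Grb10, 0.73 for Ndn and Impact and 0.68 for the neighbours Dlk1 and Meg3. The lowest were -0.81 for Mest and Impact, -0.74 for Mest and Ndn and -0.72 for Meg3 and Plagl1.

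The genes outside the members most like each member were then looked up. They matched it more closely than any other member did, which a search over far more genes makes nearly certain. Among 10787 genes above 3 on the log2 CPM scale, the 3 most like Ndn were Cand2, Gldc and Amph, with r of 0.996 to 0.999. Those most like Mest were Cops7b, Rbm7 and Zfp566, and those most like Impact were Tmx2, Anapc1 and Parp9. Meg3 was matched best by Ubxn11, Akap8l and Rab36 (0.981 to 0.988), and Dlk1 by Vangl1, Prkcc and Efcab1 (0.993 to 0.998). For Peg3 they were Serpinb8, Islr and Mphosph10, for Grb10 Fam43a, Fbln5 and Las1l, and for Plagl1 Tmco1, Sp4 and Dcaf17. With 6 values per gene such matches are frequent, and between 14 genes for Meg3 and 128 genes for Ndn exceeded an r of 0.95.

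Neighbours of the members in the same imprinted domains were then set beside them. The domains were grouped after the values had been seen. In the Dlk1-Dio3 domain of chromosome 12, the 6 listed genes Dlk1, Meg3, Rtl1, Rian, Mirg and Dio3 all had a higher mean log2 level in Klf9 f/f in series 22 and a lower one in series 32. Of all genes tested, 19.9% had this pattern. Rtl1 was not among the genes tested, and Dio3 passed the filter only through a Klf9 f/f sample, so nothing is read from the count. The noncoding RNA Rian had levels of 3.59, 3.70 and 6.59 CPM in the Klf9 +/+ samples against 4.86, 4.28 and 6.32 CPM in the Klf9 f/f samples. Its difference in series 32 was only -0.06, and that of Rtl1, with 5 to 15 reads per sample, only -0.03. Mirg differed by 0.26 in series 22 and by -1.34 in series 32, from 13 reads in Klf9 f/f replicate 3. Dio3, which inactivates thyroid hormone, had 10 to 69 reads per sample. Meg3 had the highest counts of the 6 genes.

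The other domains gave different patterns. Around Ndn, the 7 listed genes included 2 with a higher level in Klf9 f/f in both series, Ndn and Peg12, and 1 with a lower level in both, Atp10a (-0.78 in series 22 and -1.24 in series 32). Of all genes tested, 29.3% were higher in both series and 26.1% lower in both, so the share around Ndn was near that of all genes. In the same region, Snrpn and Ube3a, known from the Prader-Willi and Angelman syndromes, had log2 fold changes of -0.05 and -0.02 with standard errors of 0.14. Beside Peg3, the deubiquitinase gene Usp29 had a log2 fold change of -0.48 ± 0.35 (SE), and it was lower in Klf9 f/f in both series, as was Peg3. On distal chromosome 7, 5 of the 10 listed genes were lower in both series, H19, its neighbour Igf2, Kcnq1, Cdkn1c and Slc22a18. The share over all genes tested was 26.1%. H19 was not tested and Kcnq1 passed the filter only through Klf9 +/+ samples, so nothing is read from this count.

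**Figure D5:**
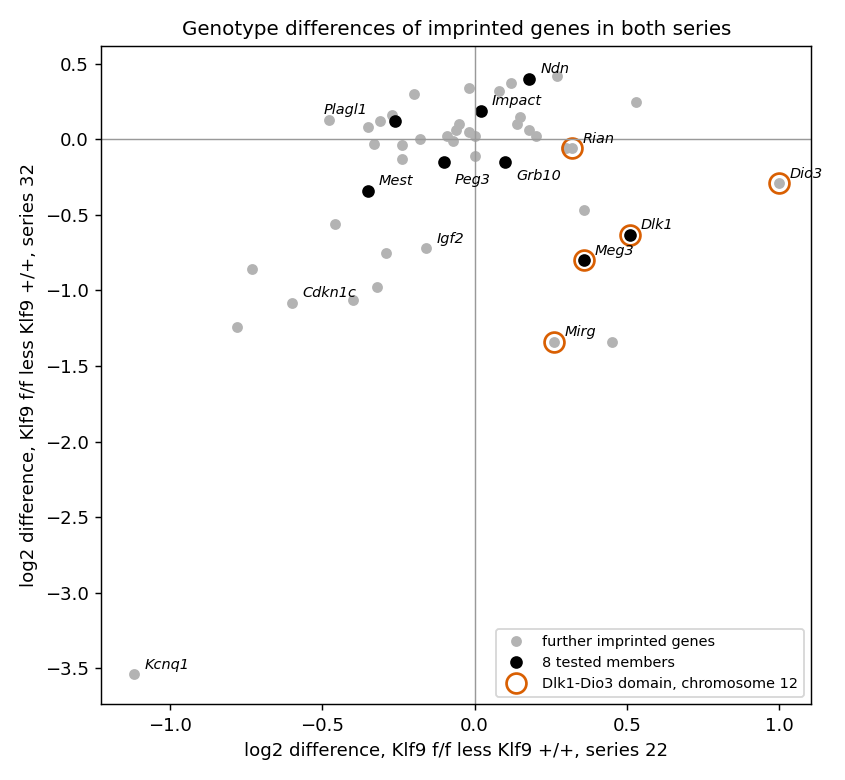
Each point is an imprinted gene tested, placed by its log2 difference between Klf9 f/f and Klf9 +/+ in series 22 (horizontal) and in series 32 (vertical); black points are the 8 members, grey points the 40 further imprinted genes, and orange rings the tested genes of the Dlk1-Dio3 domain. Meg3 and Dlk1 lie at the lower right (0.36 and -0.80, 0.51 and -0.63), Mest and Cdkn1c at the lower left and Ndn at the upper right.

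Of 58 further imprinted genes listed, 52 were found in the files and 40 tested. They included 8 genes that are often put in a network with Plagl1, Dlk1, Meg3, Peg3, Mest, Grb10, Ndn and H19. In Klf9 f/f, 0 of the 40 were called higher and 2 were called lower, Cdkn1c and Kcnq1, where the shares over all genes tested were 1.82% and 2.50%. Kcnq1 and Asb4 passed the filter only through Klf9 +/+ samples and Dio3 only through a Klf9 f/f sample, so the call of Kcnq1 is not independent of the filter, and nothing is read from the count. Cdkn1c passed the filter in both genotypes, as did all 8 members tested. The median log2 fold change of the 40 was -0.04, with 15 positive and 25 negative values. For the 8 network genes the median was -0.19, with 1 called lower.

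Cdkn1c encodes p57, a cyclin-dependent kinase inhibitor that keeps adult neural stem cells quiescent. Its level was 39.8, 35.2 and 85.4 CPM in the Klf9 +/+ samples and 26.4, 23.2 and 40.4 CPM in the Klf9 f/f samples, below the Klf9 +/+ samples of each series. Its log2 fold change was -0.76 ± 0.15 (SE; unadjusted p = 0.000718, adjusted p = 0.474, edgeR). The level of Igf2, a growth factor of the choroid plexus and meninges that also acts on RGLs, was 137, 228 and 341 CPM in the Klf9 +/+ samples and 177, 142 and 207 CPM in the Klf9 f/f samples. Its log2 fold change was -0.37 ± 0.21 (SE), and the genotypes overlapped in series 22. With a sample left out it went from -0.60 without Klf9 +/+ replicate 1, where it passed the threshold (unadjusted p = 0.00499, edgeR), to -0.19 without Klf9 +/+ replicate 2 (unadjusted p = 0.441) and without Klf9 f/f replicate 3 (unadjusted p = 0.473). It was -0.20 without Klf9 +/+ replicate 3 (unadjusted p = 0.456).

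Kcnq1, a potassium channel gene, lay below 1 CPM after scaling in all 6 samples, with 7 to 31 reads in Klf9 +/+ and 1 to 12 reads in Klf9 f/f. Its fitted log2 fold change of -2.13 is given as a description only, since the gene entered the fit through Klf9 +/+ replicate 3, where its level was highest. The value missed the threshold without Klf9 +/+ replicate 1 (-1.47), Klf9 f/f replicate 2 (-1.90) or Klf9 f/f replicate 3 (-1.53). The 11 choroid plexus markers had a median log2 fold change of -2.28 in the same fit, with 11 of 11 called lower, and the 9 mural cell markers one of -0.97, with 5 called lower. The part of these tissues in the levels of Cdkn1c, Igf2 and Kcnq1 was not tested. Imprinted genes with values near 0 included Sgce at 0.00, Nnat at -0.01 and Gnas at 0.12 on the log2 scale.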

How the data were processed

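Per the labels and the study's methods, RiboTag RNA was made into SMARTer libraries, and 50 bp reads were mapped with STAR to mm9 and counted per gene with HTSeq without strand. The authors deposited these whole-number counts without normalization, beside 5 HTSeq summary lines, which were left out. Genes were named from GENCODE M1 on mm9. The filter of the study's methods, over 1 CPM in any sample, kept 15056 of 37620 genes. Counts were scaled by TMM and fitted with edgeR 4.0.16 (R 4.3.3, glmQLFit and glmQLFTest) with genotype and library series as terms, which leaves 3 residual degrees of freedom. P-values were adjusted by Benjamini-Hochberg over all genes tested. Standard errors are the log2 fold change over the root of F. Log2 CPM used a prior count of 2. CPM are after TMM scaling. The separate samples are pools of mice.

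The members and lists were chosen with earlier results of these data known. Named are all members, listed imprinted genes that were called, Igf2, Cdkn1c, Klf9 and the 3 genes most like each member; other genes were chosen after their values were seen. Of the listed genes, 6 further imprinted genes and 1 ependymal marker were not found by name. Alternatives were DESeq2 1.42.0, fits without the series term, upper-quartile and RLE scaling, the likelihood-ratio test, 2 other filters, each sample left out and series 22 alone. The test was first checked on simulated data. Figures were drawn with matplotlib 3.10.9.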

Additional observations from a re-analysis of the deposited data

Results flagged for a closer look

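Meg3 was flagged because its genotype difference was not the same in the 2 library series. The difference in series 32 less that in series 22 was -1.15 on the log2 scale with a standard error of 0.36 (unadjusted p = 0.00797 and adjusted p = 1.00 from the interaction term of edgeR's fit). It was the only 1 of the 8 members and 40 further imprinted genes tested with an unadjusted p under 0.05 for this term. Of all genes tested, 1.53% had such a p, so nothing is read from the count. Both Klf9 f/f samples of series 22 were above both Klf9 +/+ samples, while the Klf9 f/f sample of series 32 was below its Klf9 +/+ counterpart at 206 against 357 CPM. In series 32 the Klf9 +/+ sample also held the higher sum of choroid plexus markers, at 2740 against 422 CPM. In series 22 the Klf9 +/+ samples held the higher sums too, at 148 and 730 against 35.3 and 28.2 CPM. Their Meg3 levels were the lower ones there, at 173 and 145 against 200.3 and 207 CPM. The part of the choroid plexus in the Meg3 level was not tested.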

How the results depend on the processing

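The count of members called higher was 0 in each fit, except those that left out 1 sample, where it was 0 to 1. The count called lower was 0, but 1 with upper-quartile scaling, 2 with all genes of at least 1 count (Mest and H19) and 0 to 1 with a sample left out. The median log2 fold change of the members was -0.14 to 0.07 with a sample left out. Of the further imprinted genes, 1 was called higher with all genes of at least 1 count and 0 to 1 with a sample left out. The count called lower, 2 in the reported fit, was 1 without the series term, 7 with all genes of at least 1 count, 1 with the filter of 1 CPM in 3 samples, 1 in series 22 alone and 1 to 5 with a sample left out. Directions reversed for Dlk1 (-0.10) and Grb10 (-0.01) without the series term and for Meg3 in series 22 alone (0.35). With a sample left out, Dlk1 went from -0.21 to 0.59, Grb10 from -0.14 to 0.12 and Meg3 from -0.22 to 0.36. Cdkn1c stayed between -0.86 and -0.60 with a sample left out and missed the threshold without the series term (-0.84, unadjusted p = 0.0548, edgeR). The count of members that differed between the series, 3, was 3 with upper-quartile scaling and 4 with the likelihood-ratio test. Depth limits Dlk1, H19, Zim1 and Kcnq1, with as few as 46, 3, 1 and 1 reads in a sample. No paired analysis was possible because the labels carry no replicate numbers. Those used here are running numbers in the order of the samples, and the library series, which the titles do give, is already a term of the fit.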

Other observations

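Gnas, an imprinted gene that encodes the stimulatory G protein alpha subunit, differed between the library series far more than the members did, and was chosen after its values were seen. Its level was 32.5, 36.2 and 398.8 CPM in the Klf9 +/+ samples and 35.5, 40.1 and 427.7 CPM in the Klf9 f/f samples. The series log2 fold change was 3.52 ± 0.13 (SE; adjusted p = 8.42e-06, edgeR), while the genotype log2 fold change was 0.12 ± 0.13 (SE). In both genotypes the samples of series 32 lay above those of series 22. Nnat, which encodes the imprinted proteolipid neuronatin, had the highest level of the imprinted genes listed, at a median of 1040 CPM per kb of exon, above 99.9% of all genes tested, and a genotype log2 fold change of -0.01 with an interval from -0.48 to 0.46.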
